A study of Mus musculus with 8 samples.

Results

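The miRNAs carried by extracellular vesicles (EVs) were compared with those of the hepatocytes that released them, in cells silenced for the RNA-binding protein PCBP2. The comparison used 4 of the 8 libraries of the series, namely the EV shPCBP2 and cell shPCBP2 libraries with 2 biological replicates each, and all 1978 mouse miRNAs of the count table. In these 4 libraries 705 miRNAs had reads, and 180 miRNAs had reads in enough libraries to be tested. 3A cells are murine hepatocytes that do not form tumours, grown on collagen with EGF, IGF II and insulin. shPCBP2 cells were stably infected with a pSUPER retro puro retrovirus carrying an shRNA against PCBP2, and the shCTR cells of the other 4 libraries carried a scrambled shRNA in the same vector. Infected cells were selected with puromycin, whether a line is a pool or a clone is not given in the sources used here, and the level of PCBP2 itself is not measured by small RNA libraries. EVs were purified by centrifugation, filtration and ultracentrifugation from medium conditioned for 72 h, which contained fetal bovine serum depleted of EVs. A miRNA of the nematode, cel-miR-39, had been spiked into each sample. Each miRNA was therefore described by its share, in reads per 1000000 mouse miRNA reads of the library (RPM), and by its level, which sets its reads against those of the spike-in cel-miR-39-3p.

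Mature miRNAs guide Argonaute proteins to messenger RNAs, mainly through the seed, bases 2 to 8 from the 5′ end. A miRNA that leaves the cell in EVs can act in another cell, and one that is retained acts in the cell that made it. RNA-binding proteins that read short motifs in the mature miRNA take part in this partition in hepatocytes. SYNCRIP binds the hEXO motif and favours export, and PCBP2, a protein with KH domains that prefers C-rich RNA, was silenced to ask what part it has in this partition.

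Mature sequences were taken from RefSeq (GRCm38.p6) and were matched for 156 of the 180 tested miRNAs. They are printed with the seed in capitals. The first sequences belong to miRNAs found at much higher share in EVs than in cells.
miR-223-3p: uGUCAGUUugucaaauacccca
miR-451a: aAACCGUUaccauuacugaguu
miR-142a-3p: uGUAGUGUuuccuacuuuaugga
miR-214-3p: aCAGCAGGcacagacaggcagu
miR-127-3p: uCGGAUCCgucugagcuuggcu
miR-148a-3p: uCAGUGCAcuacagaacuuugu
miR-126a-3p: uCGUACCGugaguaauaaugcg
miR-191-5p: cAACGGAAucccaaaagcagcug
The next were read in both cell libraries and had no read in either EV library.
miR-872-5p: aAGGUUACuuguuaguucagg
miR-192-5p: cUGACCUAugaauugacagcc
miR-17-3p: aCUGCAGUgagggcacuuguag
miR-27a-5p: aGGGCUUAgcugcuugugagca
miR-129-2-3p: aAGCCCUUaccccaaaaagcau
The third set comprises abundant cell miRNAs whose share was lower in EVs.
miR-21a-5p: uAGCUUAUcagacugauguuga
miR-24-3p: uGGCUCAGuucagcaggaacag
miR-27a-3p: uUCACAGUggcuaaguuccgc
miR-27b-3p: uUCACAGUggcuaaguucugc
let-7b-5p: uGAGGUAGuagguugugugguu
The last set holds miRNAs with a common seed and unequal EV/cell ratios.
miR-10a-5p: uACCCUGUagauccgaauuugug
miR-10b-5p: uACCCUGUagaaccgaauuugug
miR-99a-5p: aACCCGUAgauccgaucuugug
miR-100-5p: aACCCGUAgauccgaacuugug
miR-181a-5p: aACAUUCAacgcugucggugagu
miR-181d-5p: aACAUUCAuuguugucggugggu

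EVs held far fewer miRNA reads per spike-in read than cells. Mouse miRNAs received 8745848 and 12634729 reads in the cell libraries and 618598 and 503070 in the EV libraries, with 17645400, 17818800, 37548200 and 30408600 spike-in reads in the same order. This gave 496 and 709 mouse reads per 1000 spike-in reads in cells and 16.5 in both EV libraries. The cell mean was 36.5-fold the EV mean, and the single pairs of libraries gave 30.0- to 43.0-fold. The number of cells behind each EV preparation is not in the files, so a level ratio between EVs and cells is relative to the spike-in and is not a ratio per cell. Neither does it tell less RNA per vesicle from fewer vesicles.

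Fewer kinds of miRNA were also read in EVs. The EV libraries held far fewer mouse miRNA reads than the cell libraries, and detection was not compared at equal depth. Reads were found for 553 and 599 miRNAs in cells and for 189 and 183 in EVs. Of the 705 miRNAs read in shPCBP2, 203 were found in both compartments, 481 only in cells and 21 only in EVs, and 76 of those found in EVs were read in 1 EV library alone, with a median count of 123.5 and a highest count of 437. The reads of the detected miRNAs were no more concentrated in EVs. The 10 most abundant miRNAs took 55.5% and 55.6% of mouse reads in cells and 52.4% and 53.1% in EVs, and miR-16-5p, which targets cell cycle genes, was the most abundant in each library. The EV libraries carried few low counts. Counts from 1 to 40 made up 46.8% and 48.4% of non-zero counts in cells and 3.17% and 5.46% in EVs, so few EV values lay between 0 and 40 counts. Replicates were close in cells and less so in EVs. The shares of a tested miRNA in the replicates differed by a median of 0.12 on the log2 scale in cells and by 0.66 in EVs.

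Relative to the spike-in, most tested miRNAs were lower in EVs than in cells, and a small group was higher. The level differed for 122 of 180 miRNAs (67.8%) at a threshold of 0.05 on the Benjamini-Hochberg adjusted p of edgeR's quasi-likelihood test, and of these 14 were higher in EVs (7.78%) and 108 lower (60.0%). The median log2 EV/cell ratio of levels was -4.90 over all tested miRNAs. In composition, 89 of 180 miRNAs differed (49.4%), with 54 at a higher share in EVs (30.0%) and 35 at a lower share (19.4%), around a median log2 ratio of 0.30. Without cell shPCBP2 replicate 1 or 2 the miRNAs with a higher level numbered 6 or 9. Below, a miRNA is called higher or lower only where it passed this test or where its bound is given. The split into higher and lower followed the scaling. In place of either split there were 42 higher and 45 lower with TMM factors, and 45 and 41 with median-of-ratios factors. The 14 miRNAs with a higher level also had a higher share. A further 17 had a higher share with no call on the level, 23 had a higher share and a lower level, and the 35 with a lower share had a lower level as well. Both EV libraries lay above both cell libraries in share for 74 tested miRNAs (41.1%) and below them for 57 (31.7%). In level the EV libraries were above for 22 (12.2%) and below for 144 (80.0%).

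**Figure D1:**
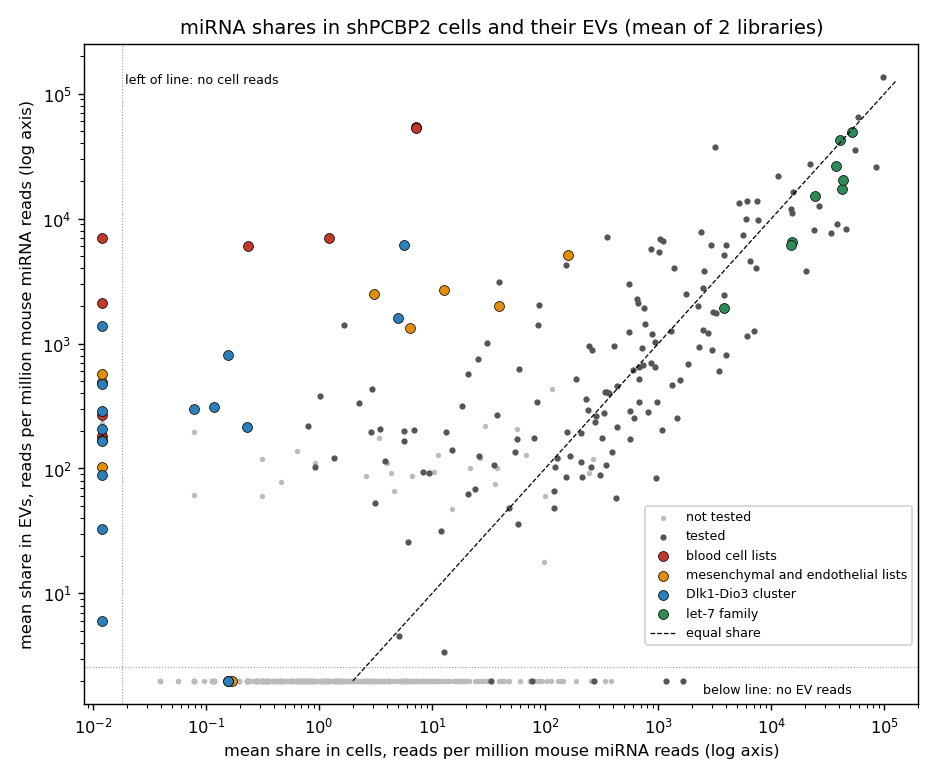
Mean share of each miRNA in cell shPCBP2 (x axis) and EV shPCBP2 (y axis) libraries, in RPM on log axes, with 2 libraries per mean. Points left of the vertical dotted line had no cell reads and points below the horizontal one no EV reads. Most blood cell, mesenchymal and Dlk1-Dio3 miRNAs lie in the upper left, far above the dashed line of equal share, and the let-7 miRNAs lie on or under that line at the upper right.

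Several miRNAs known from blood cells were scarce or unread in the cells and abundant in their EVs. miR-486a-5p and miR-486b-5p, the erythroid miRNAs of this group with reads in each library, stood among the 10 most abundant miRNAs of EVs. miR-486a-5p had 68 and 85 counts in cells and 34143 and 26618 in EVs, or 7.78 and 6.73 RPM in cells and 55194 and 52911 in EVs. Its mean share was 7454-fold higher in EVs (log2 12.86 ± 0.17 (SE); adjusted p = 3.80e-08, edgeR's quasi-likelihood test), and its level was higher as well (log2 7.69, adjusted p = 5.83e-06 by the same test). The counts of miR-486b-5p differed from these by less than 2% in each library, and the separate levels of these near-identical miRNAs are uncertain. miR-451a, which is made in red blood cells without Dicer and lies at chr11:78073186-78073207 on the plus strand with no other annotated gene on that strand, had 0 and 0 counts in cells and 3595 and 4119 in EVs. With the cells taken at 3 counts per library its share was at least 24118-fold higher in EVs. It was not tested, because fewer than 2 cell libraries had reads. Its neighbour miR-144-3p had 0 and 0 counts in cells and 160 and 141 in EVs. Together the 5 erythroid miRNAs made up 11.6% and 11.4% of mouse reads in EVs against 0.00154% and 0.00135% in cells.

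Leukocyte miRNAs showed the same order. miR-223-3p, a myeloid miRNA at chrX:96242884-96242905 on the plus strand, had 0 and 6 counts in cells and 3528 and 3255 in EVs, a mean share 25635-fold higher in EVs (log2 14.36 ± 1.13; adjusted p = 1.28e-04, edgeR's quasi-likelihood test). The lymphocyte miRNA miR-150-5p had 16 and 8 counts in cells and 3827 and 3931 in EVs and a share 5685-fold higher (log2 12.50 ± 0.73). miR-142a-3p, found in most blood cell lineages and placed at chr11:87756903-87756925 on the plus strand in an intron of Mir142hg, had 0 and 0 counts in cells and 1263 and 1117 in EVs, which bounds its share at least 7343-fold higher in EVs. The 4 leukocyte miRNAs took 1.42% and 1.66% of EV reads and 0.00018% and 0.00011% of cell reads. The tested members of both lists, 2 of 5 erythroid and 2 of 4 leukocyte miRNAs, were higher in EVs in share and in level. Of all tested miRNAs 30.0% were higher in share and 7.78% in level. The 2 tested erythroid miRNAs are the near-identical miR-486a-5p and miR-486b-5p, which may not be separate signals.

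The tested mesenchymal miRNAs were also higher in EVs. The tested 5 of 7 rose in share and level, with a median log2 EV/cell share of 9.65, counting miR-199a-3p and miR-199b-3p separately. Of the untested members, miR-199a-5p was read only in cells and miR-199b-5p only in EVs, with 128 and 0 counts. miR-143-3p, a smooth muscle miRNA, had 21 and 47 counts in cells and 1045 and 1650 in EVs, and its share was 812-fold higher (log2 9.65 ± 0.97). Its cluster mate miR-145a-5p had 0 and 0 counts in cells and 225 and 310 in EVs and was at least 1688-fold higher in share. miR-214-3p, at chr1:162223438-162223459 on the plus strand in an exon of the antisense gene Dnm3os, had 0 and 0 counts in cells and 464 and 200 in EVs and was at least 1977-fold higher. miR-199a-3p had 93 and 191 counts in cells and 1560 and 1409 in EVs and was 207-fold higher. miR-199b-3p has an identical mature sequence and carried fewer counts (46 and 95 counts in cells and 780 and 705 in EVs), so their separate levels are uncertain. The level calls of miR-199a-3p and miR-199b-3p were lost when any 1 of the cell libraries was left out.

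The endothelial miRNA miR-126a-3p, which lies in an exon of Egfl7 at chr2:26591402-26591423 on the plus strand, had 1524 and 1829 counts in cells and 2827 and 2824 in EVs. Its share was 31.9-fold higher in EVs (log2 5.00 ± 0.24; adjusted p = 2.63e-05, edgeR's quasi-likelihood test), but its level relative to the spike-in was nearly equal in both compartments (log2 -0.17, adjusted p = 0.764 by the same test). miR-126a-5p followed it, with a share log2 ratio of 5.68 ± 0.67.

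The Dlk1-Dio3 cluster, an imprinted domain on chromosome 12 that encodes many miRNAs, was nearly silent in the cells. Of 34 cluster miRNAs 16 had reads in shPCBP2, 8 of them only in EVs and 2 (miR-376b-3p and miR-541-5p) only in cells. Of all 705 miRNAs read in shPCBP2, 21 were read only in EVs. Among the EV-only cluster members miR-433-3p, miR-487b-3p and miR-409-5p had reads in both EV libraries. In EV shPCBP2 replicate 2 alone reads were found for miR-299a-5p, miR-323-3p, miR-382-5p, miR-411-5p and miR-543-3p. The 5 tested cluster miRNAs had a higher share in EVs, 4 of them also a higher level. The cluster took 1.15% and 1.27% of EV reads against 0.00129% and 0.00102% of cell reads. miR-127-3p, which lies antisense to the retrotransposon-derived gene Rtl1 at chr12:109592888-109592909 on the plus strand, had 61 and 55 counts in cells and 3832 and 3119 in EVs and a share 1094-fold higher in EVs (log2 10.10 ± 1.14). miR-433-3p, its neighbour at chr12:109591781-109591802 on the plus strand, had 0 and 0 counts in cells and 755 and 767 in EVs. miR-379-5p had 0 and 2 counts in cells and 203 and 137 in EVs, miR-494-3p had 0 and 3 counts in cells and 156 and 184 in EVs and miR-376c-3p had 0 and 4 counts in cells and 361 and 523 in EVs. The fitted ratios of these 3 miRNAs rest on 0 to 4 cell counts per library.

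Blood, mesenchymal and endothelial cells should not be present in a culture of hepatocytes. The erythroid list had 135 and 170 reads in the cell libraries, the leukocyte list 16 and 14, the mesenchymal list 163 and 333, the endothelial list 1946 and 2198 and the Dlk1-Dio3 cluster 113 and 129. Comparable shares were found in the EV shCTR libraries, with 9.63% and 10.3% for the erythroid, 1.70% and 1.37% for the leukocyte and 1.59% and 1.29% for the Dlk1-Dio3 miRNAs. The part of other sources of RNA in these EV reads was not tested. Since these miRNAs take part of the EV reads, the shares of the other miRNAs depend on them. With the erythroid, leukocyte, endothelial, mesenchymal and Dlk1-Dio3 miRNAs left out of the library totals, 61 miRNAs were higher and 29 lower in share, and the median log2 ratio moved from 0.30 to 0.54.

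**Figure D2:**
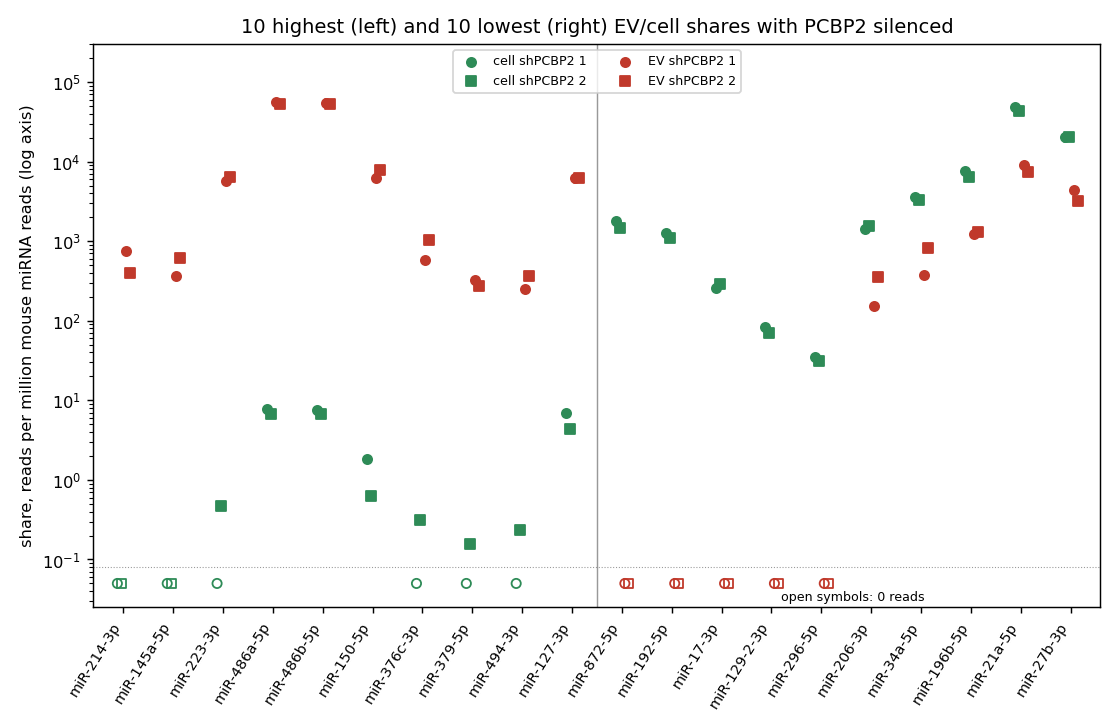
Share of the 10 miRNAs with the highest (left) and the 10 with the lowest (right) fitted EV/cell ratio, in RPM on a log axis, 1 point per library (green, cell shPCBP2; red, EV shPCBP2; circle, replicate 1; square, replicate 2). The ranking covers only miRNAs that passed the test in share, with both EV libraries on the same side of both cell libraries. Open symbols under the dotted line stand for 0 reads. EV points lie far above cell points on the left, and on the right miR-872-5p, miR-192-5p, miR-17-3p, miR-129-2-3p and miR-296-5p have no EV reads.

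The hepatocyte miRNAs did not move as a group. Of 9 liver-enriched miRNAs 8 had reads and 5 were tested, 2 higher and 2 lower in share. Over all tested miRNAs 30.0% were higher and 19.4% lower. miR-122-5p, the main miRNA of liver, was scarce in 3A cells and had 356 and 469 counts in cells and 1556 and 1872 in EVs. Its share was 80.1-fold higher in EVs (log2 6.32 ± 0.57; adjusted p = 2.14e-04, edgeR's quasi-likelihood test), and its level did not pass the test (log2 1.15, adjusted p = 0.213 by the same test). miR-148a-3p had 7 and 32 counts in cells and 964 and 620 in EVs and was 837-fold higher in share and also higher in level (log2 4.39). The miR-192/194 cluster behaved otherwise. miR-194-5p was abundant, with 24980 and 22925 RPM in cells and 8817 and 7522 in EVs, and its share was 2.93-fold lower in EVs (log2 -1.55 ± 0.11). miR-192-5p had 10976 and 13775 counts in cells and 0 and 0 in EVs. The 2 miRNAs are neighbours on chromosome 19, but miR-194-5p is also encoded on chromosome 1, and its reads from both loci are counted together. Striated muscle miR-206-3p, with 12252 and 19342 counts in cells and 96 and 178 in EVs, was 5.76-fold lower in share. Of the 2 tested muscle miRNAs the other, miR-1a-3p, had a ratio in the opposite direction that did not pass the test (log2 4.06).

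Some miRNAs with many reads in cells had no EV reads. Of the 481 miRNAs read only in cells, 35 had enough cell reads to bound the EV share at least 4-fold under the cell share, when each EV library was taken at 3 counts. miR-872-5p, from an intron of Ift74 at chr4:94665167-94665187 on the plus strand, had 15851 and 18554 counts in cells and 0 and 0 in EVs, so that its share was at least 303-fold lower in EVs. miR-192-5p, at chr19:6264857-6264877 on the plus strand, was at least 217-fold lower. For miR-27a-5p (3310 and 4787 counts in cells and 0 and 0 in EVs), the minor arm of the miR-27a hairpin at chr8:84208685-84208706 on the plus strand, the bound was 70.0-fold, and for miR-2137 (2925 and 4373 counts in cells and 0 and 0 in EVs) it was 62.9-fold. miR-17-3p, the minor arm of miR-17 in an exon of Mir17hg, had 2230 and 3640 counts in cells and 0 and 0 in EVs and was at least 50.2-fold lower. miR-129-2-3p had 722 and 874 counts in cells and 0 and 0 in EVs, with a bound of 14-fold, and miR-296-5p had 304 and 393 counts in cells and 0 and 0 in EVs, with a bound of 6.09-fold. The bounds rest on the floor. At 10 counts per EV library 20 miRNAs kept a bound of at least 4-fold, and at the 5th percentile of the non-zero EV counts, 71.6 and 36.8 counts, 3 did. Leaving out EV shPCBP2 replicate 1 or 2 gave 54 or 57 such miRNAs, against 34 and 36 without a cell library.

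The epithelial miR-200 family, which maintains epithelial identity, had 4 of its 5 members read only in cells, where 68.2% of all miRNAs with reads were read only in cells. miR-200a-3p, with 1057 and 1321 counts in cells and 0 and 0 in EVs, was at least 20.8-fold lower in share. miR-429-3p was the exception, with 523 and 677 counts in cells and 256 and 0 in EVs. No member of this family was tested.

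Among abundant miRNAs with EV reads, several guide strands of the cells were under-represented in EVs. miR-21a-5p, a miRNA raised in many proliferating cells and located in an exon of Vmp1 at chr11:86584120-86584141 on the minus strand, had 48594 and 43734 RPM in cells and 9103 and 7454 in EVs. Its share was 5.58-fold lower in EVs (log2 -2.48 ± 0.15; adjusted p = 4.71e-05, edgeR's quasi-likelihood test). The p53 target miR-34a-5p had 3608 and 3257 RPM in cells and 373 and 823 in EVs, a share 5.74-fold lower. miR-196b-5p, from the Hoxa cluster, had 7640 and 6365 RPM in cells and 1225 and 1286 in EVs and was 5.58-fold lower.

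The miR-23/27/24 guides, made from 2 clusters on chromosomes 8 and 13, together took 18.0% and 18.1% of cell reads and 7.34% and 8.04% of EV reads. Of the 5 guides 4 had a lower share in EVs and 1 a higher one, where 19.4% of all tested miRNAs were lower and 30.0% higher. miR-24-3p, the second most abundant miRNA of cells with 86068 and 83002 RPM in cells and 24987 and 26517 in EVs, was 3.28-fold lower (log2 -1.71 ± 0.10). miR-27a-3p had 37441 and 38565 RPM in cells and 6549 and 11444 in EVs and miR-27b-3p had 20240 and 20463 RPM in cells and 4340 and 3218 in EVs, 4.22- and 5.38-fold lower. These 2 miRNAs share a seed and differ by 1 substitution (C19U, miR-27a-3p base first, counted from the 5′ end), so reads may be divided between them. In contrast miR-23a-3p, from the same cluster as miR-27a-3p, had 21438 and 22809 RPM in cells and 26167 and 28342 in EVs and a share 1.23-fold higher (log2 0.30 ± 0.09), a call that was lost without cell shPCBP2 replicate 1 or 2 and without EV shPCBP2 replicate 2.

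The let-7 family, regulators of differentiation with a common seed, made up 26.7% and 27.7% of cell reads and 19.0% and 18.1% of EV reads. Of 9 members 7 had a lower share in EVs, and the median log2 ratio was -0.99, against 0.30 for all tested miRNAs. A lower share was called for 19.4% of all tested miRNAs. let-7b-5p had 43567 and 40399 RPM in cells and 18083 and 16212 in EVs and was 2.45-fold lower (log2 -1.29 ± 0.09). let-7i-5p and let-7e-5p gave log2 ratios of -1.28 and -1.23. let-7a-5p and let-7g-5p did not pass the test, with 0.09 and -0.07, and remained among the 10 most abundant miRNAs of EVs.

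Other families were shifted towards EVs. A higher share was called for 30.0% of all tested miRNAs. In the miR-15/16 family, which restrains the cell cycle, the 4 tested members had a higher share. miR-16-5p had 93904 and 98781 RPM in cells and 124772 and 146797 in EVs, a 1.41-fold higher share (log2 0.50 ± 0.09) that turned to -0.12 with TMM factors. The scarce miR-195a-5p had 16 and 50 counts in cells and 100 and 115 in EVs and a 67.4-fold higher share. Both tested miR-26 guides were higher, miR-26a-5p 1.90-fold. Of the miR-99/100 and miR-125 guides 4 of 5 were higher, and together they took 3.13% and 2.87% of EV reads against 1.33% and 1.16% of cell reads. miR-191-5p belongs to none of these lists. It had 3196 and 3209 RPM in cells and 41421 and 33097 in EVs, a 11.6-fold higher share (log2 3.54 ± 0.15; adjusted p = 1.78e-05, edgeR's quasi-likelihood test), and its level was lower in EVs (log2 -1.65). The 5 members of the miR-30 family and the 3 of the miR-183 cluster did not pass the test in share. miR-103-3p, a metabolic regulator from introns of Pank2 and Pank3, had 55081 and 54748 RPM in cells and 35328 and 35104 in EVs, a 1.56-fold lower share. miR-31-5p, the second most abundant miRNA of EVs, had 58210 and 58263 RPM in cells and 63840 and 66557 in EVs and a log2 ratio of 0.16 ± 0.09 (adjusted p = 0.175, edgeR's quasi-likelihood test).

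The miR-17~92 and miR-106b~25 clusters, which favour proliferation, were divided among their members. The first took 3.62% and 3.52% of cell reads and 4.10% and 4.16% of EV reads. Of its 5 tested miRNAs 2 had a higher and 1 a lower share in EVs. Over all tested miRNAs 30.0% were higher and 19.4% lower, so these counts do not set the cluster apart. miR-92a-3p had 8764 and 13784 counts in cells and 4990 and 2909 in EVs and a log2 ratio of 2.73 ± 0.19. Its reads from a second locus, on chromosome X, are counted with these. miR-18a-5p, with 34040 and 50790 counts in cells and 3350 and 3489 in EVs, was higher as well (log2 0.64 ± 0.21). miR-17-5p, with 138012 and 190919 counts in cells and 10320 and 8010 in EVs, gave a log2 ratio of 0.08 ± 0.11, which did not pass, and miR-17-3p had no EV reads, as described above. In the second cluster miR-25-3p was higher (log2 1.17 ± 0.12) and miR-93-5p lower (log2 -1.05 ± 0.09). The miR-130 family, with its relatives of the same seed, took 3.68% and 3.72% of cell reads and 1.55% and 0.770% of EV reads. Its lower share lay in miR-130a-3p, with 290651 and 426747 counts in cells and 5892 and 2900 in EVs (log2 -2.13 ± 0.24), and the other 2 tested members did not pass.

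**Figure D3:**
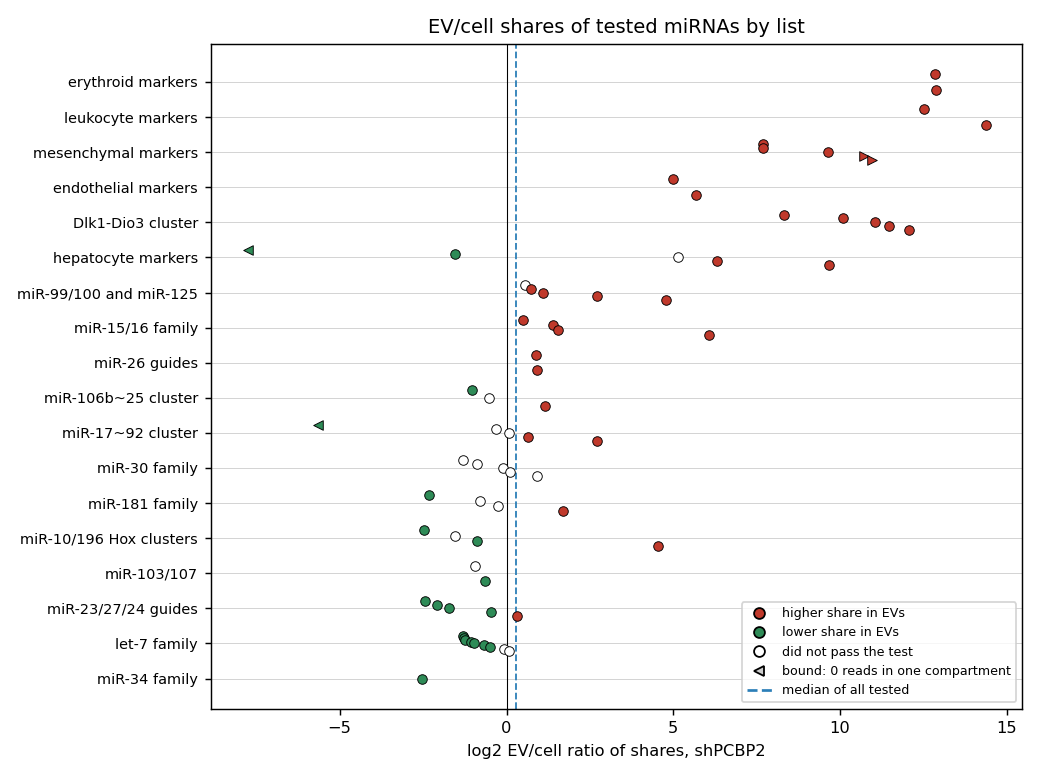
Fitted log2 EV/cell ratio of shares in shPCBP2 for the tested miRNAs of 18 lists, 1 point per miRNA. Red and green points passed the test at an adjusted p under 0.05, white points did not, and triangles are bounds for miRNAs with 0 reads in one compartment. Blood cell, mesenchymal, endothelial and Dlk1-Dio3 miRNAs lie to the right of the dashed median of all tested miRNAs (0.30), and most miR-23/27/24 and let-7 miRNAs to its left.

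A common seed did not fix the EV/cell ratio. Of the 112 seeds of tested miRNAs 22 were shared by 2 or more miRNAs, 66 miRNAs in all. miR-10a-5p and miR-10b-5p come from the Hoxb and Hoxd clusters and differ by 1 substitution (U12A, miR-10a-5p base first). miR-10a-5p had 7146 and 7619 RPM in cells and 4303 and 3731 in EVs and a log2 ratio of -0.88 ± 0.14, while miR-10b-5p had 95.8 and 80.2 RPM in cells and 1360 and 2701 in EVs and a log2 ratio of 4.53 ± 0.43. Both passed the test, in opposite directions. miR-99a-5p, from an intron of Mir99ahg, had 155 and 154 RPM in cells and 4787 and 3797 in EVs and was 27.8-fold higher in share. miR-100-5p, separated from it by 1 substitution (U16A, miR-99a-5p base first), had 2392 and 2738 RPM in cells and 3028 and 4584 in EVs and did not pass the test (log2 0.57 ± 0.22). In the miR-181 family miR-181a-5p was 3.26-fold higher and miR-181d-5p 4.97-fold lower, and their sequences differ at 4 positions. In each of these 3 pairs the member with the higher ratio was the scarcer in cells.

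Across all tested miRNAs the ratio was higher where the cell share was low. The Spearman correlation of the log2 EV/cell ratio with the cell share was -0.62 over 180 miRNAs, a description only, as both use the cell counts. Shares in cells and EVs correlated at 0.60, against 0.998 between the cell and 0.885 between the EV replicates. Neither GC content (0.11) nor length (-0.0013) of the mature sequence ran with the ratio over the 156 miRNAs with a sequence. The arms of a hairpin were often unequal. In 21 hairpins with both arms tested the arms differed by a median of 1.36 in absolute log2 ratio, and the arm scarcer in cells had the higher ratio in 12. In the let-7d hairpin the arms were called in opposite directions, with let-7d-5p at 23267 and 25044 RPM in cells and 13841 and 16483 in EVs (log2 -0.67 ± 0.11) and let-7d-3p at 31.7 and 19.5 RPM in cells and 1277 and 227 in EVs (log2 4.88 ± 1.17). The call of let-7d-3p was lost without either cell shPCBP2 replicate.

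Short motifs were searched in the 156 tested mature sequences as plain letter matches, which can overlap each other. The core CELL motif was taken as AUUA or AUUG, the core of hEXO as GGCU, the EXO motif of other cells as GGAG, and a C tract as CCC. The study scanned for hEXO and an extended CELL motif with matrices that allow variants, so these letter matches are not its motif calls. GGCU is absent from miR-155-5p, miR-181d-5p and miR-192-5p, which the study lists with hEXO. The medians below describe the letter matches only. The core CELL motif was found in 25 sequences (16.03%, against 8.87% of the 1679 mature sequences in the reference table). With PCBP2 silenced these miRNAs had a median log2 EV/cell share of 0.03, against 0.09 for the 131 without it, and spread from strongly higher to unread in EVs. In the following examples the match is in capitals.
miR-199a-3p: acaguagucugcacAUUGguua
miR-195a-5p: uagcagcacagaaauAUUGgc
miR-23a-3p: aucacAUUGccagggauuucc
let-7f-5p: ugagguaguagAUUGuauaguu
miR-181d-5p: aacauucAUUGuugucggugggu
miR-192-5p: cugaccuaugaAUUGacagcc
The first 3 were higher in EVs, let-7f-5p and miR-181d-5p were lower and miR-192-5p had no EV reads. In shCTR the corresponding medians were -0.18 with and -0.06 without the motif. The core of hEXO, in 24 sequences, gave medians of -0.15 with and 0.12 without it, and GGAG, in 19, gave -0.06 and 0.14.

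The C tract divided the miRNAs more. It was found in 30 sequences (19.2%, against 23.3% of the reference table), with a median log2 EV/cell share of 2.01, against -0.12 for the 126 sequences without it. Of the 30 miRNAs 12 were higher and 5 lower in EVs, compared with 29 and 29 of the 126, where 30.0% of all tested miRNAs were higher and 19.4% lower. With 1 value per seed the medians were 1.72 and 0.03. In shCTR they were 0.93 and -0.28, so the difference between the groups was present in the control cells as well. The tract is shown in capitals for 6 miRNAs that were higher in EVs.
miR-223-3p: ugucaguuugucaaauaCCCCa
miR-423-3p: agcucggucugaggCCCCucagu
miR-99a-5p: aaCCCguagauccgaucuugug
miR-10b-5p: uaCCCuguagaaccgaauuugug
miR-191-5p: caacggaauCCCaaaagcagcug
miR-125a-5p: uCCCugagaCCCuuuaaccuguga
It is also present in miRNAs that were lower or unread in EVs.
miR-10a-5p: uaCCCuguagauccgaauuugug
miR-324-5p: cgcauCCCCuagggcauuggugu
miR-298-5p: ggcagaggagggcuguucuuCCC
miR-129-2-3p: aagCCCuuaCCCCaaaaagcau
miR-296-5p: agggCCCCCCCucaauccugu
In miR-99a-5p, miR-10b-5p and miR-125a-5p the tract lies in the seed, so their family members share it. No test was run on the motif groups.

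**Figure D4:**
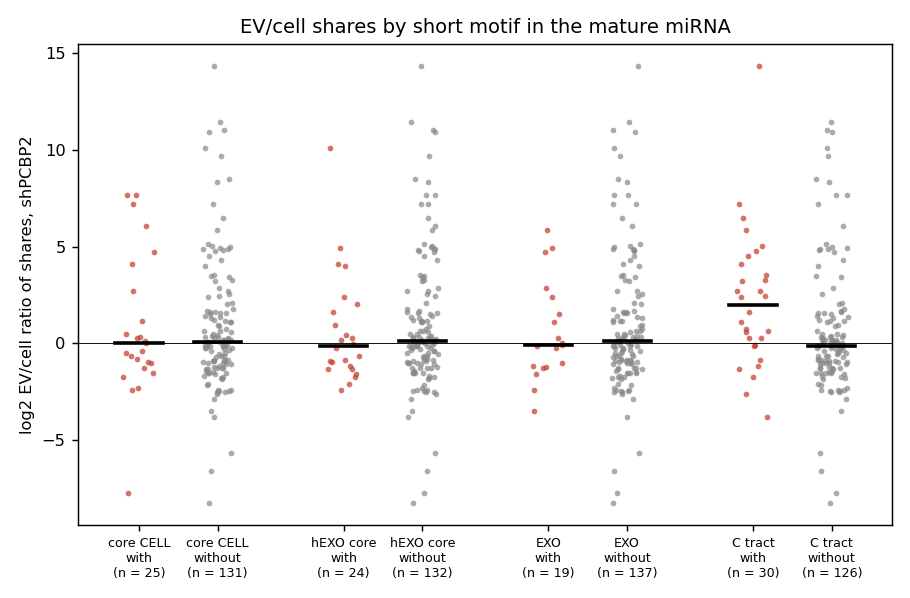
Log2 EV/cell ratio of shares in shPCBP2 for tested miRNAs with (red) and without (grey) each of 4 letter matches in the mature sequence, with black bars at the medians of the fitted values and n under each group. miRNAs with 0 reads in one compartment are drawn at their bound. The medians with a C tract and without it stand at 2.01 and -0.12, and the medians for the other motifs lie between -0.15 and 0.14.

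The study names 9 miRNAs with both the CELL and hEXO motifs. That list was chosen in part on these libraries and is not independent evidence of any direction. Of the 9, 6 were tested, 2 higher and 2 lower in EV share, with a median log2 ratio of 0.36, where 30.0% of all tested miRNAs were higher and 19.4% lower around a median of 0.30. miR-23a-5p had 68 and 77 counts in cells and 205 and 36 in EVs and was 29.1-fold higher. miR-155-5p had 6463 and 7865 counts in cells and 318 and 261 in EVs, with a log2 ratio of -0.40 ± 0.46 that did not pass the test. miR-26b-3p had 79 and 66 counts in cells and 0 and 0 in EVs and miR-3084-5p had 123 and 165 counts in cells and 0 and 0 in EVs, too few in cells for a bound of 4-fold. Thus with PCBP2 silenced the miRNAs of the list ranged from unread in EVs to unread in cells (miR-214-3p). The study measured their EV/cell ratio in shPCBP2 against shCTR by RT-qPCR, and PCBP2 binding by CLIP. A share within shPCBP2 is a different measure from either.

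The EV/cell partition of shPCBP2 was largely that of shCTR. The log2 ratios of shares in both conditions had a Spearman correlation of 0.846 over the 180 miRNAs, and the conditions share no library. The median log2 difference of the ratios of levels, shPCBP2 minus shCTR, was -0.08 over all tested miRNAs. The ratio of levels differed for 4 miRNAs (2.22%) in the interaction of compartment and shRNA by edgeR's quasi-likelihood test. In shPCBP2 1 was higher (0.556%) and 3 lower (1.67%). Each of these had a condition without EV reads and passed the filter only through the EV reads of the other condition. These calls are therefore not independent of the filter. At an unadjusted p under 0.05 there were 11 higher and 6 lower. With limma voom 0 miRNAs passed, and 12 had an unadjusted p under 0.05. The miRNA with the higher ratio was miR-345-3p, with 689 and 1031 counts in cells and 126 and 73 in EVs of shPCBP2, and 0 and 0 counts in EVs of shCTR. Those with the lower ratio, miR-872-5p, miR-129-2-3p and miR-296-5p, unread in EV shPCBP2, had 99 and 176, 262 and 179, and 189 and 117 counts in EV shCTR. In cells miR-129-2-3p had 5802 and 4625 counts in shCTR against 722 and 874 in shPCBP2, and its part in the difference was not tested. miR-192-5p, with 1058 and 62 counts in EV shCTR, did not pass (adjusted p = 0.0917, by the same test). miR-23a-5p had the same adjusted p in the opposite direction, with 205 and 36 counts in EV shPCBP2 and 0 and 0 in EV shCTR. Of the 6 tested miRNAs of the study's list with both motifs 1 was called, miR-345-3p, and their median log2 difference was 3.91. The middle values were 0.12 for miR-155-5p and 7.70 for miR-214-3p. The latter had EV reads in both conditions, but 0 and 0 counts in cell shPCBP2 against 32 and 18 in cell shCTR. The size of the median therefore follows the prior count.

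Scaled to the mouse total, the ratio of shares differed for 6 miRNAs (3.33%), 4 higher (2.22%) and 2 lower (1.11%) in shPCBP2. miR-872-5p, miR-129-2-3p and miR-345-3p were among them and miR-296-5p was not. The other 3 had reads in each EV library. miR-181a-5p had 69079 and 58992 counts in cells and 3926 and 3222 in EVs of shCTR, and 21723 and 28761 counts in cells and 5536 and 3294 in EVs of shPCBP2. Its EV/cell share was higher in shPCBP2 by 1.56 on the log2 scale (adjusted p = 0.0219, edgeR's quasi-likelihood test). For miR-486a-5p (193 and 155 counts in cells and 30647 and 26695 in EVs of shCTR) the difference was 1.19 (adjusted p = 0.0185, by the same test), and miR-486b-5p, whose separate level is uncertain, followed with 1.25. The ratios of levels did not pass, with an adjusted p of 0.124 for miR-181a-5p and 0.434 for miR-486a-5p by the same test. miR-27a-5p and miR-2137 were unread in EVs of both conditions. For the blood cell and Dlk1-Dio3 miRNAs the ratios of shares were high in both conditions, as for miR-486a-5p (log2 11.67 in shCTR), whose ratio was nevertheless called as different, miR-223-3p (15.16) and miR-127-3p (10.43). For retained guides the values were also close, with -2.42 for miR-21a-5p, -1.76 for miR-24-3p and -1.16 for let-7b-5p in shCTR.

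**Figure D5:**
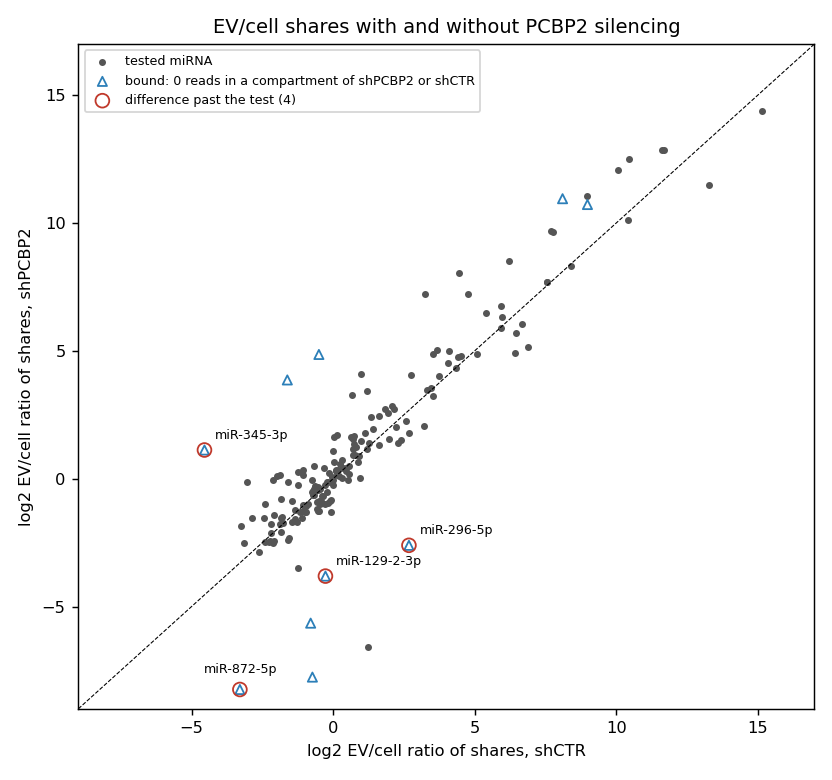
Log2 EV/cell ratio of shares in shCTR (x axis) and shPCBP2 (y axis), 1 point per tested miRNA, with the dashed line of equal ratios. Triangles mark miRNAs with 0 reads in a compartment of either condition, drawn at their bound, and red circles the 4 miRNAs whose ratio of levels differed between conditions. Most points lie along the line, and the 4 circled miRNAs lie away from it, miR-345-3p above and the other 3 below.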

How the data were processed

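Small RNA libraries from 3A cells and their EVs were used, with 2 biological replicates in each of 4 groups set by the labels (cell or EV, shCTR or shPCBP2). The replicate numbers are those of the titles. The authors trimmed reads with FastqToolkit 2.2.5 (length of at least 10, mean quality of at least 30), kept forward reads, aligned them to the hairpins of miRBase 22.1 and the spike-in using mirPRo 1.1.4 with NovoAlign, and deposited raw counts of reads per mature miRNA. The deposited counts above 999999 are kept to 6 significant digits. The labels give no sequencing batch.

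Level was scaled by the spike-in count and composition by the total mouse count of each library. The test took miRNAs with at least 1 read in 2 or more libraries of each compartment. It was run with edgeR 4.0.16 in R 4.3.3 (glmQLFit and glmQLFTest, 4 group means over all 8 libraries, prior count of 0.125), and p-values were adjusted by the Benjamini-Hochberg method over all 180 miRNAs at a threshold of 0.05. The common dispersion was 0.693 for level and 0.678 for composition. Standard errors were derived from the F statistic and are approximate. SDs of 2 libraries are not given where both values are printed. DESeq2 1.42.0, limma 3.58.1 and the other settings described in the closing section were run as alternatives. The fit was also run on simulated counts, but only for the EV against cell contrast in level, so the interaction was not checked. Where both libraries of a compartment had 0 counts, a fold was computed with 3 counts per library and is a bound. Without molecular identifiers, reads are not independent molecules, and these bounds cover only the error of counting. Folds are ratios of mean shares, and log2 values are fitted.

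Lists of miRNAs, motifs and the groups compared were chosen with earlier results of these data known. Named miRNAs are the 10 highest and 10 lowest EV/cell shares among those called with libraries that do not overlap, the 10 largest shares of each compartment, the 5 most abundant miRNAs unread in one compartment, those called in the interaction, and the list members with the highest counts. Members of lists described for a contrast within a family, an arm or a motif were chosen after their values were seen. Sequences and coordinates are from RefSeq (GRCm38.p6), host genes from GENCODE for GRCm38. Figures were drawn with matplotlib 3.10.9.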

Additional observations from a re-analysis of the deposited data

Results flagged for a closer look

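The EV/cell ratio of levels differed between shPCBP2 and shCTR for 4 miRNAs in the interaction of compartment and shRNA (edgeR's quasi-likelihood test, Benjamini-Hochberg adjusted). The fitted log2 difference, shPCBP2 minus shCTR, was -9.18 for miR-872-5p (adjusted p = 0.0110), -9.58 for miR-296-5p (adjusted p = 0.0415), -7.82 for miR-129-2-3p (adjusted p = 0.0301) and 9.88 for miR-345-3p (adjusted p = 0.0301), each by the same test. These sizes depend on the prior count, because 1 condition of each had no EV reads. Each passed the filter only through the EV reads of the other condition, so the calls are not independent of the filter. miR-345-3p had 126 and 73 counts in EV shPCBP2 and 0 in both EV shCTR libraries, with 689 and 1031 counts in cell shPCBP2. No call was left with limma voom or without cell shCTR replicate 1, cell shCTR replicate 2 or cell shPCBP2 replicate 2. A filter of at least 10 counts in every library removes all 4 before the test.

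On shares the difference was called for 6 miRNAs. It was -12.98 for miR-872-5p, -11.56 for miR-129-2-3p and 13.55 for miR-345-3p, again with sizes set by the prior count. It was 1.56 for miR-181a-5p (adjusted p = 0.0219, edgeR's quasi-likelihood test), 1.19 for miR-486a-5p (adjusted p = 0.0185, by the same test) and 1.25 for miR-486b-5p (adjusted p = 0.0208, by the same test), and these 3 were not called on levels.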

How the results depend on the processing

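With 2 libraries per group the tests rest on the spread pooled over groups, and the shares of EV miRNAs varied more between replicates than those of cells. The number of calls in level went from 122 to 294 without a filter on low counts (21 higher and 273 lower of 800 miRNAs), and in composition from 89 to 170 (60 higher and 110 lower). The other alternatives gave counts within 1.5 times of these, and leaving out 1 library gave 104 to 131 calls in level and 64 to 105 in composition. The lowest composition count was that without cell shPCBP2 replicate 2, and the 14 miRNAs with a higher level became 6 without cell shPCBP2 replicate 1 and 9 without replicate 2. The 4 calls of the interaction became 13 with TMM factors, 2 with median-of-ratios factors, 14 with DESeq2, 0 with limma voom (12 at an unadjusted p under 0.05), 0 with at least 10 counts in every library (6 unadjusted), a filter that removes the 4 miRNAs before the test, and 0 to 11 with 1 library left out. Of the 35 miRNAs without EV reads bounded at least 4-fold, 20 were left at a floor of 10 counts and 3 at the 5th percentile of EV counts, and 34 to 57 were found with 1 library left out. The median log2 share of the core CELL miRNAs moved from 0.03 to -0.19 with 1 value per seed, and that of the miRNAs without the motif from 0.09 to 0.34. The cause was not tested for these changes.

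The replicate numbers of the titles are shared by the groups. A second label numbers the shPCBP2 libraries 2 and 3 for EVs and 1 and 3 for cells, so that only replicate 2 of the titles has a common number in both. Same-numbered EV and cell libraries did not deviate together (correlation -0.06 in shCTR and 0.04 in shPCBP2 over 180 miRNAs). This cannot decide on a pairing, because replicates differed by a median log2 of 0.12 in cells and 0.66 in EVs. Which EV and cell libraries come from the same culture is not stated, so the main tests used no pairs. The replicate block gave 111 calls in level, 83 in composition and 1 in the interaction.

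Of 71 named miRNAs that were tested, 64 kept the sign of their EV/cell share in the alternatives other than the spike-in, and 37 kept their sign and side of the threshold in each alternative. The 14 with a higher level kept their sign, and 6 of them never lost the call. The spike-in moves each log2 share by about the same amount, -5.19 for the total, so positive values under that size turn by construction. It gave -4.70 for miR-16-5p, -5.03 for miR-31-5p, -5.11 for let-7a-5p, -1.65 for miR-191-5p, -4.90 for miR-23a-3p, -4.64 for miR-100-5p, -5.11 for miR-17-5p, -4.55 for miR-18a-5p, -0.30 for miR-23a-5p, -4.02 for miR-25-3p, -4.07 for miR-345-3p, -0.17 for miR-126a-3p, -0.64 for miR-10b-5p, -0.39 for miR-99a-5p, -4.07 for miR-99b-5p, -2.46 for miR-125a-5p, -4.41 for miR-125b-5p, -4.27 for miR-26a-5p, -2.47 for miR-92a-3p, -3.48 for miR-181a-5p, -0.25 for let-7d-3p, -0.093 for miR-423-3p, -2.73 for miR-342-3p and -2.76 for miR-671-5p. TMM factors gave -0.12 for miR-16-5p, -0.46 for miR-31-5p, -0.53 for let-7a-5p, -0.32 for miR-23a-3p, -0.55 for miR-17-5p and -0.031 for miR-100-5p, and median-of-ratios factors gave -0.25 for miR-31-5p, -0.32 for let-7a-5p, -0.11 for miR-23a-3p and -0.34 for miR-17-5p. let-7g-5p, which was not called, turned to 0.18 with the marker lists left out of the totals, an alternative added after seeing the data, and ranged from -0.23 to 0.077 with 1 library left out.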
